A study of Homo sapiens with 8 samples.

Results

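The 4 arrays of PC3 cells are described here as one set, in order to find which genes moved the same way whichever microRNA was transfected. PC3 cells derive from a human prostate carcinoma. The 4 transfected RNAs were miR-150-5p, miR-150-3p, miR-99a-3p and miR-100-3p, each a mature microRNA introduced with Lipofectamine RNAiMAX, a lipid reagent. The time between transfection and harvest is not given in the sources used here. The set takes 4 of the 8 arrays of the series. The other arrays were FaDu cells, a hypopharyngeal cancer line, with either arm of miR-99a (miR-99a-5p, miR-99a-3p, 2 arrays), and PANC-1 cells, a pancreatic cancer line, with either of 2 siRNAs against FOXQ1 (2 arrays). On every array RNA of the transfected cells carried the dye Cy5 and RNA of mock cells of the same line, labelled as not transfected, carried Cy3. No array had the dyes exchanged, no array held cells with a control microRNA, and each condition had 1 array. The 4 PC3 arrays are therefore not replicates of 1 treatment. An SD over them holds the spread between 4 different microRNAs together with differences between mocks and between single arrays.

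A microRNA is loaded into an Argonaute protein and guides it to messenger RNAs through its seed, the bases near its 5′ end, and the paired messages are destabilised. RNAs with different seeds pair with different sets of messages. Genes that move together after several unrelated small RNAs can belong to programmes that many treatments touch, such as the cell cycle, stress responses and the silencing machinery itself. Mature sequences of 2 of the 4 RNAs were taken from RefSeq (GRCh38.p14) and are shown because their seeds are close and yet not the same. The seed, bases 2 to 8, is in capitals.
miR-99a-3p: cAAGCUCGcuucuaugggucug
miR-100-3p: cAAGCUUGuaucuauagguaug
The first lies at chr21:16539138-16539159 on the plus strand and the second at chr11:122152240-122152261 on the minus strand. Counted from the 5′ end of miR-99a-3p, the sequences differed at 5 of 22 bases, and C7U was the difference that fell inside the seed.

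A gene was measured when both dyes of its probe exceeded background clearly on all 4 PC3 arrays (the scanner software's own call) and no outlier flag was set, and a gene with several probes was represented by the brightest. Of 43317 gene names on the array, 15872 were measured. Values are log2 ratios of transfected over mock cells, taken from the ratios that the authors' scanner software wrote. The median ratio of the measured genes was between 0.003 and 0.047 on the 4 arrays. No gene spot was saturated, and repeated spots of a probe had a median SD of 0.051 to 0.056 within an array. The ratio of the spike-in controls had a slope of 0.882 to 0.900 on the expected log ratio, so that the ratios were somewhat compressed. Epithelial identity was seen in the mock cells, since 10 of 10 epithelial markers were well above background in all 4 PC3 mock channels. Among 8 genes of the androgen receptor axis on the array, KLK3 and ACPP were above background in none of them, and of 9 blood and endothelial markers 3 were above background in none.

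The 4 mock channels were not interchangeable. After normalization between channels, mocks of the miR-150-5p and miR-150-3p arrays differed by over 1.5-fold at 24 genes, and those of the miR-99a-3p and miR-100-3p arrays at 17 genes. Between the pairs the number was 163 to 187. CDH1, the epithelial cadherin, had log2 mock signals of 9.46 and 9.48 on the miR-150 arrays and of 8.03 and 8.01 on the other two. CLDN7, a claudin of tight junctions, had 8.81 and 8.94 against 7.31 and 7.43. The mock channels thus fell into 2 pairs along with the RNAs transfected, and the labels do not say whether arrays of a pair used the same mock culture. A gene with 1 sign on all 4 arrays held that sign against both pairs of mocks.

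Of the 15872 genes, 2034 were lower on all 4 PC3 arrays, or 12.8%, and 2395 were higher on all 4, or 15.1%. The remaining 11443 had mixed signs. Taken by pair, 4401 genes (27.7%) were lower on both miR-150 arrays and 4314 (27.2%) on both of the miR-99a-3p and miR-100-3p arrays, while 5081 (32.0%) and 4982 (31.4%) were higher. Without the miR-100-3p array, 3093 genes were lower and 4087 higher on the other three. Most of the shared changes were small. The median of the mean log2 ratio was -0.34 for the lower genes and 0.30 for the higher genes, and the weakest of the 4 ratios had a median size of 0.098 and 0.099. The ratio exceeded the spot error of the scanner software on every array for 379 lower and 458 higher genes. It reached 1.5-fold on every array for 13 lower and 18 higher genes, and 2-fold for 0 lower genes and 1 higher gene, the uncharacterized LOC100131372. The lowest mock signal of LOC100131372 was 23.7 units, the dimmest among these genes. Just inside 1.5-fold were LOC101927202 (weakest change 0.596) and C1QTNF9B-AS1 (0.588), and just outside were RAD54L (0.584) and KLF3 (0.582).

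No gene had a mean that passed the test. With limma and Benjamini-Hochberg adjustment over 15872 genes, 0% were called at an adjusted p of 0.05, the lowest adjusted p was 0.232, and 2756 genes (17.4%) had an unadjusted p under 0.05. Every value below is therefore a description of 4 hybridised RNA pairs, and "lower" or "higher" means the sign of the ratio. Since arrays of a pair may share a mock, these p-values may be too small.

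The 10 protein-coding genes with the largest weakest ratio among those lower on all 4 were TK1, POM121, APOBEC3B, NOX5, KIF4A, POLA2, CPD, TYMS, HNRNPUL2 and HMGN2. Several act in DNA synthesis and division. TK1, thymidine kinase of the nucleotide salvage pathway, had log2 ratios of -0.85 with miR-150-5p, -1.26 with miR-150-3p, -2.58 with miR-99a-3p and -1.08 with miR-100-3p. Its mean was -1.45 ± 0.78 (SD, n = 4), or 2.73-fold lower, and its limma adjusted p was 0.232. TYMS, thymidylate synthase, had -0.84, -0.67, -2.76 and -0.80 in the same order. POLA2, the accessory subunit of DNA polymerase alpha, had -0.69, -0.73, -2.38 and -0.85, and KIF4A, a chromosome-binding kinesin, had -0.83, -0.93, -2.18 and -0.71. In each of these 4 genes the miR-99a-3p array stood well below the other three, which lay close together. A second probe of KIF4A was also lower on all 4 arrays, at -0.77, -0.73, -1.96 and -0.40.

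Other genes were lower by more even amounts. POM121, a membrane protein of the nuclear pore, had -1.04, -1.19, -0.86 and -0.95, with a mean of -1.01 ± 0.14 (SD, n = 4; limma adjusted p = 0.232). HNRNPUL2, an RNA-binding protein, had -0.87, -0.69, -0.78 and -0.65. CPD, carboxypeptidase D, was less even, with -1.70, -1.40, -1.72 and -0.68, and its Cy5 signal was only 38.9 to 69.7 units. POM121 has near-identical copies in the genome, so its probe may read more than 1 gene. The smallest SD among lower genes with a mean beyond 1.5-fold was that of IL17RE, BCL7C and HNRNPUL2, at 0.073 to 0.098. POM121, HNRNPUL2, CPD and BCL7C were below 0 on every FaDu and PANC-1 array too. There HNRNPUL2 had -0.017 to -0.915 and CPD had -0.142 to -1.304. For these genes a dye effect and a response shared by the lines cannot be told apart. HMGN2, a nucleosome-binding protein, gave a mock signal of 94500 to 175000 units and had -0.60, -0.71, -1.05 and -0.60. APOBEC3B, a cytidine deaminase, had -1.15, -0.81, -2.37 and -0.89, and it too has close paralogs. NOX5, an NADPH oxidase, had -0.77, -0.73, -1.98 and -1.11, and its mock signal was 1.96 higher on the log2 scale in the miR-150 mocks than in the other pair, whose part in the ratio was not tested. MYL10, RASD1, DDIT4 and COL1A1 were the other named genes whose pairs of mocks stood over 1.5-fold apart.

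The 10 higher genes were MPZL3, SLC40A1, BMF, KCNJ2, BMP2, CEMIP, NPTX1, RBM24, IGF1R and TFEC. MPZL3, a membrane protein of the immunoglobulin superfamily, had 0.90, 1.12, 2.24 and 1.27, with a mean of 1.38 ± 0.59 (SD, n = 4; limma adjusted p = 0.232). SLC40A1, the iron exporter ferroportin, had 1.27, 1.71, 1.28 and 0.84. BMF, a BH3-only protein that promotes apoptosis, had 0.81, 1.38, 2.46 and 0.77, and BMP2, a secreted ligand of the TGF-beta superfamily, had 1.30, 0.71, 1.80 and 1.74. Here the array with the largest ratio differed from gene to gene. It was miR-150-5p for KCNJ2, a potassium channel (2.28, 0.74, 0.76 and 0.85), and miR-100-3p for TFEC, a transcription factor (0.63, 0.67, 0.91 and 2.12). IGF1R, the receptor of insulin-like growth factor 1, had 0.69, 0.69, 1.42 and 0.64. Many of these genes were dim. RBM24, an RNA-binding protein, gave a mock signal of 29.1 to 78.8 units and BMP2 one of 29.0 to 55.3 units, whereas TK1 gave 82600 to 141000 units. CEMIP had 1.04, 1.48, 0.69 and 0.83, and NPTX1 had 0.67, 1.17, 0.93 and 1.65.

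**Figure D1:**
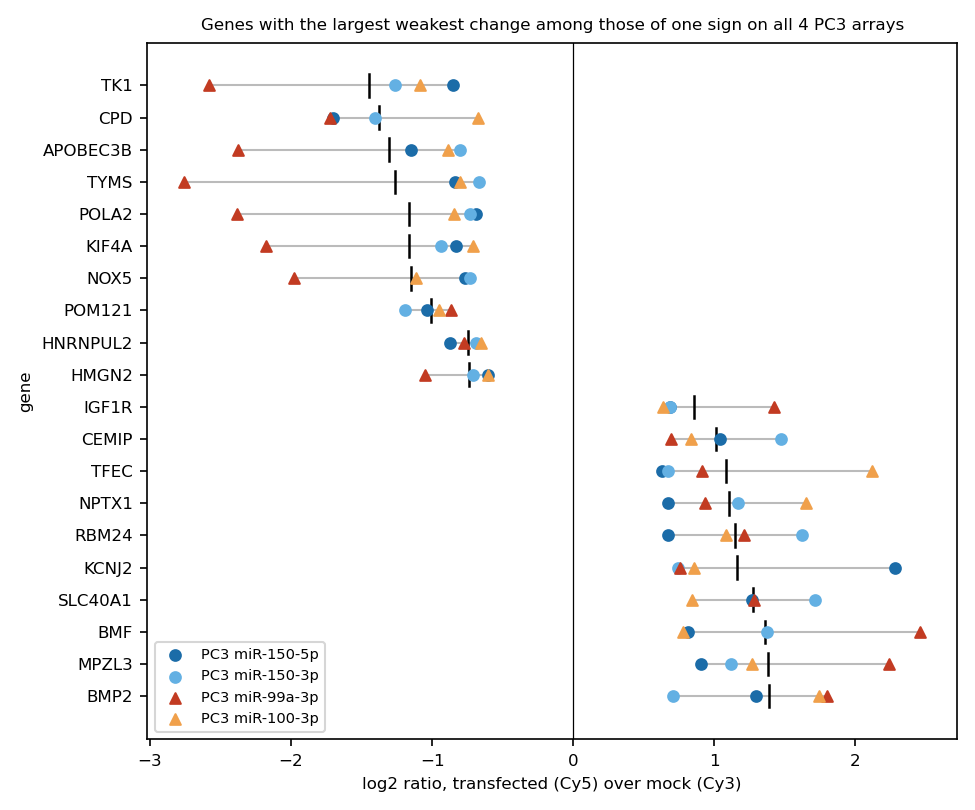
Log2 ratios of transfected over mock (x axis) on the 4 PC3 arrays for the 10 lower and 10 higher protein-coding genes with the largest weakest ratio. Symbols are arrays, the grey line is their range and the black tick is their mean, and the miR-99a-3p symbol lies far to the left for TK1, TYMS, POLA2 and KIF4A, while the 4 symbols of POM121 and HNRNPUL2 lie close together.

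By mean ratio the lowest protein-coding genes were TK1, DTL, SPC25, CPD and MYL10 (-1.45 to -1.36) and the highest were PGM2L1, BMP2, MPZL3, BMF and RASD1 (1.35 to 1.42). The ratios behind a mean could lie far apart. DTL, a substrate adaptor of a ubiquitin ligase that acts in S phase, had -3.80 with miR-99a-3p and -0.15 with miR-150-5p. PGM2L1 had 0.85, 2.57, 2.02 and 0.23. The miR-99a-3p array gave the largest of the 4 ratios for 1136 (55.9%) of the 2034 lower genes and 1172 (48.9%) of the 2395 higher genes. The number was 286 of 357 among lower and 168 of 266 among higher genes with a mean beyond 1.5-fold. The miR-150-3p array gave the largest ratio for 458 (22.5%) of the lower and 565 (23.6%) of the higher genes. The miR-100-3p array gave the largest ratio for 203 (9.98%) and 271 (11.3%), and the miR-150-5p array for 237 (11.7%) and 387 (16.2%).

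Genes of the cell cycle had the largest shares of lower members among the 18 lists, which were chosen with earlier results of these data known. The list of DNA replication genes, which load and run the replication fork and supply nucleotides, had 54 members, of which 49 were measured. Of these, 40 were lower on all 4 arrays (81.6%, against 12.8% of all measured genes) and 0 were higher. The median ratio over the list was -0.21 with miR-150-5p, -0.88 with miR-150-3p, -1.77 with miR-99a-3p and -0.41 with miR-100-3p. The list of mitosis genes, which build the spindle and kinetochore and drive the cell through division, had 62 members, of which 56 were measured. Of these, 53 (94.6%) were lower on all 4 and 0 were higher, with medians of -0.27, -0.67, -2.06 and -0.60. The median of the mean ratio was -0.82 and -0.91, beside 0.01 for all measured genes. In bulk RNA, fewer cells in a phase of the cycle and less RNA per cell cannot be told apart.

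In each member named next the lowest ratio was that with miR-99a-3p. The 6 subunits of the replicative helicase, MCM2 to MCM7, were all lower on all 4. MCM2 had -0.11, -0.95, -1.46 and -0.45, and MCM7 had -0.44, -0.88, -1.89 and -0.66. PCNA, the sliding clamp, had -0.15, -0.80, -1.30 and -0.27. RRM2, the regulated subunit of ribonucleotide reductase, was lower on the miR-150-5p array (-1.23) than on the miR-150-3p array (-0.15). In mitosis, CDK1 had -0.39, -1.01, -3.02 and -0.92, CCNB1 (cyclin B1) had -0.17, -0.45, -1.97 and -0.54, and CENPA, the centromeric histone, had -0.77, -0.61, -1.60 and -0.53. SPC25, of the outer kinetochore, had -0.56, -1.10, -3.04 and -0.87. The largest ratio was on the miR-99a-3p array for 47 of 49 replication and 55 of 56 mitosis genes. Without that array, 40 of the same 49 and 53 of the same 56 were lower on the other three, and the medians of the mean were -0.50 and -0.54 over the 52 and 61 genes measured on the other three.

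The exceptions rested mostly on the miR-150-5p array. All 49 replication genes were below 0 on the other three arrays, and 40 on this one. The 9 genes with mixed signs included CDT1, a licensing factor, GINS2, of the replicative helicase complex, and UHRF1, which maintains DNA methylation at the fork. UHRF1 had 0.001 with miR-150-5p beside -1.86 with miR-150-3p and -2.54 with miR-99a-3p. In mitosis the exceptions were CENPF, ECT2 and PLK1, and PLK1 had 0.03, -0.57, -1.18 and -0.31. These lists hold 49 and 56 of the 15872 measured genes. Of the 357 lower genes with a mean beyond 1.5-fold, 85 were on these lists. Of the 13 genes lower by 1.5-fold on every array, 4 were (TK1, TYMS, POLA2 and KIF4A).

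**Figure D2:**
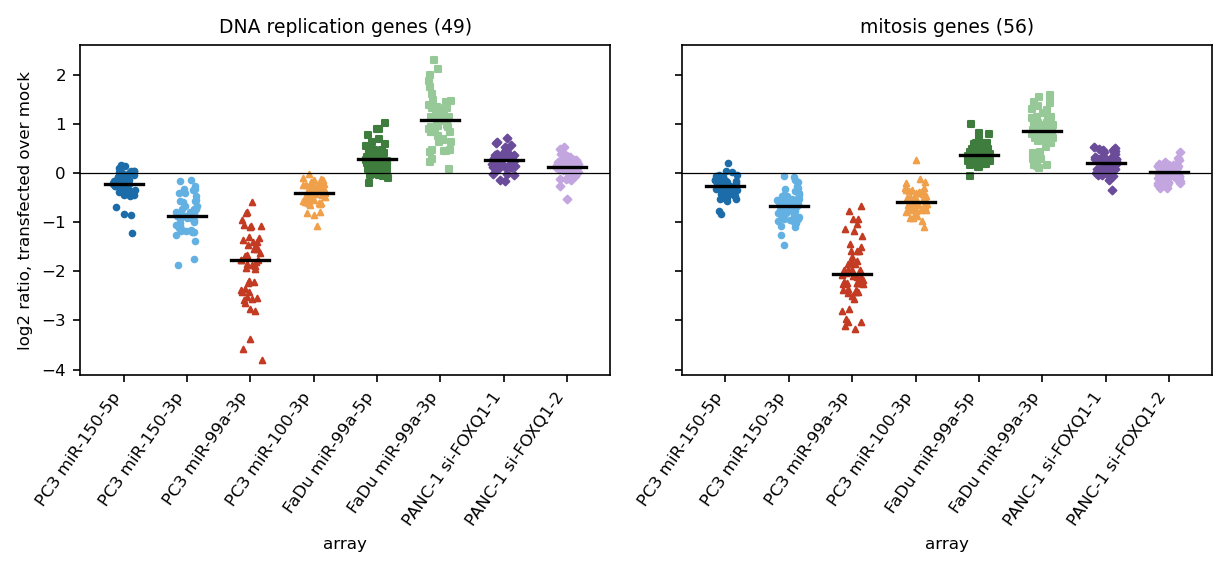
Log2 ratio of each measured DNA replication gene (left) and mitosis gene (right) on each of the 8 arrays. Each point is 1 gene and the black bar is the median, which is below 0 on all 4 PC3 arrays, lowest with miR-99a-3p, and above 0 on the FaDu and PANC-1 arrays.

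The medians of both lists were above 0 in the other lines. The replication median was 0.28 and 1.07 on the FaDu arrays and 0.27 and 0.13 on the PANC-1 arrays, and the mitosis median 0.38, 0.87, 0.21 and 0.02. On the FaDu arrays with the 5p and the 3p arm and the PANC-1 arrays with the first and the second siRNA, 6, 0, 5 and 9 of 49 replication genes were below 0, and 1, 0, 10 and 24 of 56 mitosis genes. All 49 replication and all 56 mitosis genes were measured on all 8 arrays. Of these, 26 and 25 were lower on all 4 PC3 arrays and higher on all 4 of the others, and 0 had 1 sign on all 8. Among all 13234 genes measured on all 8 arrays, 229 were lower on all 4 PC3 arrays and higher on all 4 of the others. On all 8 arrays 414 of them were lower and 445 higher. The contrast was widest for the one microRNA that both PC3 and FaDu received. With miR-99a-3p, 49 of 49 replication genes were below 0 in PC3 and 0 of 49 in FaDu, and 56 of 56 mitosis genes were below 0 in PC3 and 0 of 56 in FaDu, each from 1 array with no test. TYMS, for instance, had -2.76 in PC3 and 1.87 in FaDu. On the mean of the 4 PC3 arrays less the mean of the other 4, TYMS had -2.14 with a standard error of 0.46 (limma adjusted p = 0.249). In that comparison 0% of 13234 genes were called at an adjusted p of 0.05, the lowest adjusted p was 0.104, and 1857 genes had an unadjusted p under 0.05.

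Promoters of the lower genes were searched for short words known from cell cycle promoters. The E2F words were TTTGGCGC, TTTCCCGC, TTTGCCGC and TTTCGCGC, read by the E2F factors. The CHR word was TTTGAA, the cell cycle homology region that the MuvB complex reads, and CCAAT is the box bound by NF-Y. All were searched on both strands, from 250 bases before to 50 bases after the gene start, in RefSeq promoters of GRCh38.p14, and none of the words contains another. Of 11682 protein-coding genes measured, 9657 had a promoter in the table. The 150 bases before the start of 4 genes from the named set are shown, because each holds an E2F or CHR word there. Matches are in capitals.
TYMS: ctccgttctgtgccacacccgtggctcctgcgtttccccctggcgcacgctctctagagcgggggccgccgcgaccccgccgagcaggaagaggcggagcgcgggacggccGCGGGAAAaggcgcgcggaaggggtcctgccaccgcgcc
DTL: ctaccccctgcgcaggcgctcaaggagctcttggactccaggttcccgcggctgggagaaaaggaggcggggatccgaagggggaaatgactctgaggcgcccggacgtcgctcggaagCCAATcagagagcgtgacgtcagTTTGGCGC
KIF4A: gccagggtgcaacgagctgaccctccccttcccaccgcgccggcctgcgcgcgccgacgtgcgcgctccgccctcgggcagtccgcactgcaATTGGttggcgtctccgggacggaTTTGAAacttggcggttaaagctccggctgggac
CENPA: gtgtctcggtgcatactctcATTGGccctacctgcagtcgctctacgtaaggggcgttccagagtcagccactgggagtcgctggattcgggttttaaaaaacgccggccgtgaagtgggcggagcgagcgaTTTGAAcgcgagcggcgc
On GRCh38.p14 these lie at chr18:657503-657652, chr1:212035598-212035747, chrX:70289954-70290103 and chr2:26785906-26786055, all on the plus strand. TYMS held an E2F word 39 bases before the start and DTL one at 8 bases, beside a CCAAT box. KIF4A and CENPA held the CHR word 34 and 18 bases before the start, each with a CCAAT box upstream. In the same stretch TK1 held none of the words and SPC25 only CCAAT boxes. Named higher genes held such words too, with an E2F word for RASD1 and the CHR word for TSC22D1 and TNRC6C.

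Over all 27305 promoters in the table, 3.33% held an E2F word, 15.4% the CHR word and 35.7% the CCAAT box, and over measured protein-coding genes the shares were 5.51%, 9.47% and 37.2%. Among genes lower on all 4 arrays they were 8.13%, 13.1% and 42.1% of 1415 promoters, and among those with a mean beyond 1.5-fold 14.3%, 27.9% and 53.6% of 265. Genes higher on all 4 had 3.91%, 8.42% and 36.7% of 1354. The lists parted by word. An E2F word stood in 18 of 41 replication promoters (43.9%) and 4 of 46 mitosis promoters (8.70%), and the CHR word in 4 (9.76%) and 33 (71.7%). A match is a description of the letters only.

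**Figure D3:**
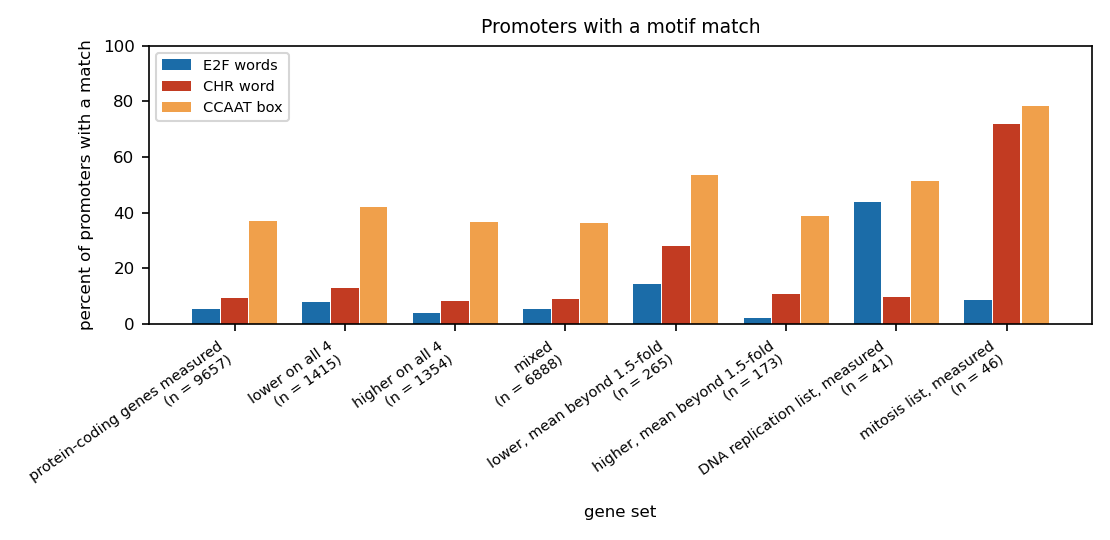
Percent of promoters (y axis) with an E2F word, the CHR word or a CCAAT box in each gene set (x axis, with the number of promoters). The E2F bar is tallest for the DNA replication list at 43.9%, the CHR bar for the mitosis list at 71.7%, and genes higher on all 4 arrays had 3.91% and 8.42% for these words.

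Replication-dependent histone genes, which are transcribed in S phase, were mostly of mixed sign. Of 48 measured, 10 were lower on all 4 (20.8%, against 12.8% of all) and 1 was higher (against 15.1%), and the medians were 0.11, -0.05, -0.27 and -0.46. H1-3 (on the array as HIST1H1D) had -0.17, -0.58, -2.17 and -1.11. H2AC6 (HIST1H2AC), the higher gene, had 0.57, 1.62, 1.68 and 0.37, but its second probe was of mixed sign, at 0.18, 0.33, 0.43 and -0.28. On the miR-100-3p array 47 of 48 were below 0, and on the miR-150-5p array 12 of 48. Histone genes are close copies of each other, so their probes may share targets. H4C13 (HIST1H4L) and H4C2 (HIST1H4B) gave -2.97 and -2.65 with miR-99a-3p, and H4C13 was of mixed sign after normexp and loess.

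The unfolded protein and ATF4 response, which handles misfolded protein and amino acid shortage, had medians a little below 0 on all 4 PC3 arrays. Of 36 genes measured, 13 (36.1%, against 12.8% of all) were lower on all 4 and 4 (11.1%, against 15.1%) higher, and the medians lay between -0.16 and -0.06. PHGDH, which opens serine synthesis, had -0.76, -0.55, -0.84 and -0.33. PDIA4, a disulfide isomerase of the endoplasmic reticulum, had -0.30, -0.47, -0.57 and -0.36, and MANF had -0.20, -0.22, -0.62 and -0.34. The list was lower in the other lines too. Its medians were -0.21 and -1.81 on the FaDu arrays and -0.50 and -0.44 on the PANC-1 arrays. On all 8 arrays 11 of its 36 genes were lower, beside 414 of the 13234 genes measured on all 8. Against this direction, DNAJB9, a co-chaperone of the same compartment, had 0.38, 0.39, 1.34 and 0.58 in PC3 and was below 0 on all 4 of the others. DDIT4, an inhibitor of mTORC1 signalling, had 0.17, 0.93, 0.59 and 0.16.

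Genes of microRNA processing and silencing had a share of higher members near that of all genes. Of 35 measured, 5 (14.3%, against 15.1% of all) were higher on all 4 and 2 (5.71%, against 12.8%) lower. DICER1, which cuts precursors into mature microRNAs, had 1.08, 0.79, 1.71 and 0.17, with a mean of 0.94 ± 0.64 (SD, n = 4; limma adjusted p = 0.232). TNRC6A and TNRC6C are scaffold proteins that join Argonaute to the deadenylases. TNRC6C had 0.47, 0.66, 0.81 and 0.78, and TNRC6A had 0.43, 0.46, 0.36 and 0.67. All 3 were also above 0 on all 4 FaDu and PANC-1 arrays, where DICER1 had 0.08, 1.70, 0.48 and 0.19. HSP90AA1, a chaperone used in loading Argonaute, had -0.18, -0.22, -0.97 and -0.11, and it was of mixed sign after normexp and loess. Its second probe was lower on all 4 arrays, at -0.445, -0.548, -1.301 and -0.558.

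Of 39 genes of growth arrest and apoptosis, 7 were higher on all 4 (17.9%, against 15.1% of all) and 6 lower (15.4%, against 12.8%). Beside BMF, BCL2L11, another BH3-only protein, had 0.78, 0.74, 1.13 and 0.40, and TXNIP, an inhibitor of thioredoxin, had 0.42, 0.33, 0.94 and 0.35. BCL2L1, which opposes apoptosis, had -0.34, -1.01, -0.60 and -0.12, and CDK4, the G1 kinase, had -0.21, -0.27, -1.10 and -0.23. BAX, which permeabilises mitochondria, had -0.22, -0.22, -0.36 and -0.12.

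Ribosomal protein genes were the list with the largest share of higher genes, at 21 of 54 (38.9%, against 15.1% of all), and 3 were lower (5.56%, against 12.8%). The ratios were small, with medians of 0.15, -0.03, 0.03 and 0.17. They depended on the normalization. After normexp and loess, 48 were higher on all 4 and 0 lower, and the median of the mean went from 0.07 to 0.32. RPS2 had 0.58, 0.53, 0.42 and 0.53, but its second probe had -0.09, -0.11, -0.24 and -0.12. RPS18 had 0.59, 0.45, 0.47 and 0.64, and its second probe was of mixed sign, at 0.10, -0.12, 0.02 and 0.14. RPL38 had 0.42, 0.38, 0.36 and 0.54. RPLP2, among the lower members, had -0.20, -0.20, -0.22 and -0.18, and its sign turned on all 4 arrays after normexp and loess.

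The interferon response was not shared. Of 43 genes measured, 0 were lower on all 4 (against 12.8% of all) and 2 were higher (4.65%, against 15.1%). The list stood apart on 1 array. Its median was 1.63 with miR-150-3p, where 1 of 43 genes was below 0, and -0.26, -0.02 and -0.30 with the other three RNAs. IFI44L, an interferon-induced gene, had 0.35, 3.1, 0.47 and 0.26, and IRF1, a transcription factor of this response, had 0.26, 1.16, 0.13 and 0.28.

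The other lists are given by their counts, beside 12.8% of all measured genes lower and 15.1% higher on all 4 arrays. Inflammatory cytokine and NF-kB genes had 1 lower and 5 higher of 23 (21.7% higher), among them NFKBIA, the feedback inhibitor of NF-kB, with 0.34, 0.56, 0.65 and 0.53, RELB with a mean of 0.44 and TNFAIP3 with 0.44. Immediate early and YAP target genes had 1 lower and 5 higher of 27. AMOTL2, a target and inhibitor of YAP, had 0.84, 0.45, 0.78 and 0.54, and LATS2 had 0.82, 0.14, 0.89 and 0.10. Cholesterol and fatty acid synthesis had 3 lower and 4 higher of 35, with HMGCS1, an enzyme of the mevalonate pathway, at 0.15, 1.31, 0.38 and 0.50, and its mean of 0.58 became 0.34 without the miR-150-3p array. Lysosome and endocytosis had 4 lower and 5 higher of 39, hypoxia and glycolysis 4 lower and 2 higher of 32, and the NRF2 and metallothionein list 5 lower (20.0%) and 0 higher of 25. SRXN1, a sulfiredoxin of the NRF2 programme, had -0.17, -1.12, -0.30 and -0.12. In the hypoxia and glycolysis list, ADM, a hypoxia-induced peptide hormone, had 0.38, 1.45, 1.34 and 0.49. Among its lower genes GAPDH had -0.24, -0.98, -0.53 and -0.33, but it was of mixed sign after normexp and loess. Extracellular matrix and adhesion genes had 6 lower and 7 higher of 50, with COL4A2, a basement membrane collagen, at 0.82, 0.34, 1.46 and 0.57 and LAMB3, a laminin chain, at -0.18, -0.38, -1.04 and -0.39. Among 10 epithelial markers 4 were lower and 1 higher on all 4, and the lower KRT18, KRT19 and CLDN4 were of mixed sign after normexp and loess.

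**Figure D4:**
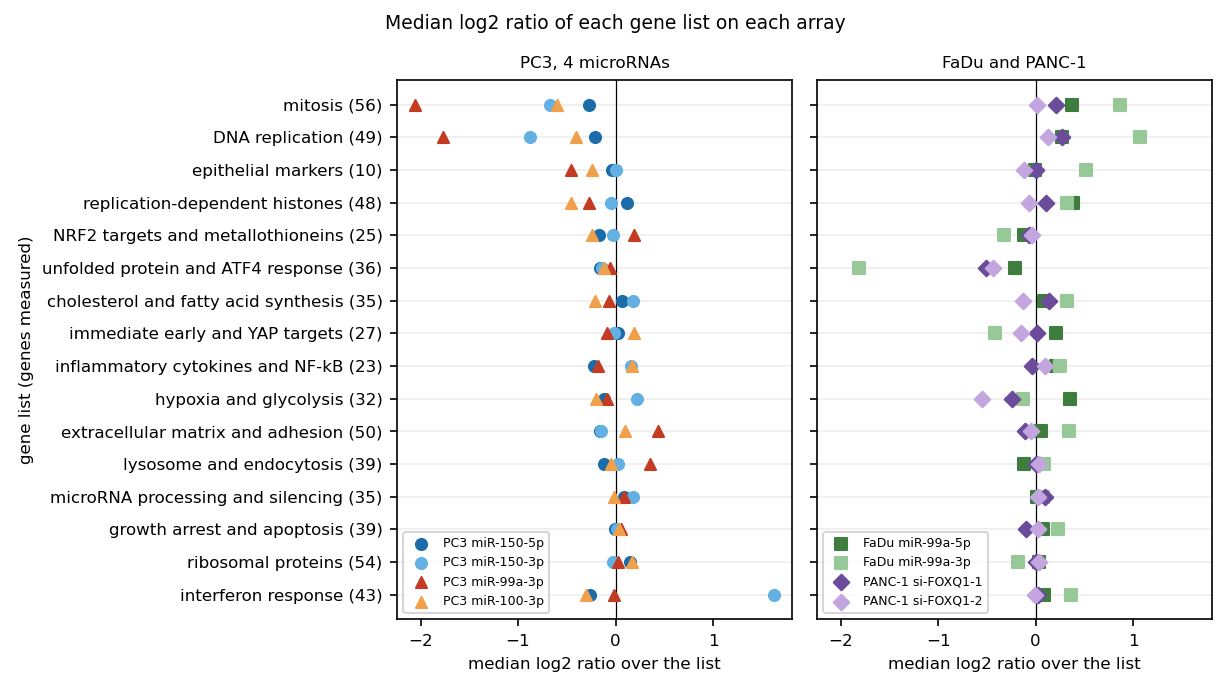
Median log2 ratio (x axis) of each gene list with 10 or more measured genes (y axis, number measured in brackets) on the 4 PC3 arrays (left) and the 4 FaDu and PANC-1 arrays (right). The mitosis and DNA replication medians are below 0 on all 4 arrays on the left and above 0 on the right, and the interferon response stands out on the miR-150-3p array alone.

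Because all arrays carried mock RNA in Cy3, a gene whose probe favours 1 dye would take the same sign on all 8. The FaDu and PANC-1 arrays were used to measure how common that was. Of 13234 genes measured on all 8 arrays, 14.8% were lower and 13.4% higher on all 4 FaDu and PANC-1 arrays. Among 1857 genes lower on all 4 PC3 arrays, 414 (22.3%) were also lower on all 4 of the others, and among 2047 higher genes 445 (21.7%) were also higher. The opposite sign on all 4 of the others was found for 229 lower (12.3%) and 94 higher genes (4.59%). By array, the PC3-lower genes were lower in 55.7% (FaDu miR-99a-5p), 45.0% (FaDu miR-99a-3p), 59.3% and 64.9% (the PANC-1 siRNAs) of cases, against 48.7% to 51.1% of all genes. The PC3-higher genes were higher in 65.4%, 49.0%, 66.9% and 74.5% of cases, against 48.9% to 51.3%. The excess was thus found on 3 of the 4 arrays and not with miR-99a-3p in FaDu. An effect of the dyes and a response to transfection that all lines share cannot be told apart in this design.

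**Figure D5:**
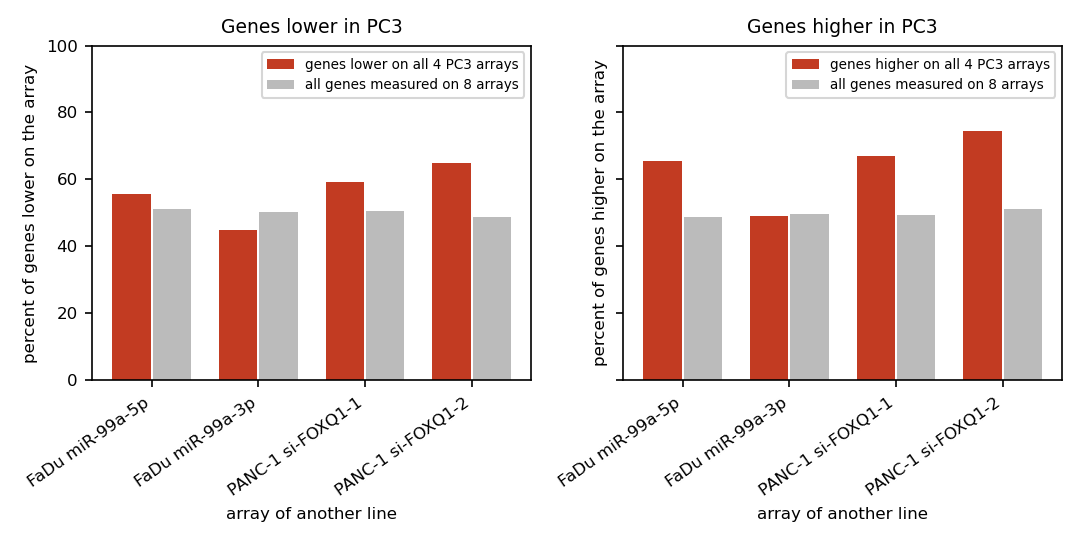
Percent of genes (y axis) with the PC3 sign on each FaDu and PANC-1 array (x axis), for genes lower (left) or higher (right) on all 4 PC3 arrays (red) and for all genes measured on 8 arrays (grey). The red bars exceed the grey ones on 3 of the 4 arrays, most with the second FOXQ1 siRNA (64.9% and 74.5%), and lie below them for miR-99a-3p in FaDu.

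The protein-coding genes with the largest weakest ratio over all 8 arrays were RTEL1, CSTB, PDIA4, MOCOS and MICALL1 among the lower and RPS2, ALG8, COL4A2, TXNIP and RPL38 among the higher. CSTB, an inhibitor of cathepsins, had -0.30, -0.50, -0.54 and -0.57 in PC3 and -0.33 to -0.39 in the others. ALG8, a glucosyltransferase of N-glycan synthesis, had 0.36, 0.41, 0.43 and 0.46 in PC3 and 0.36 to 1.26 in the others. Of the 10 genes lower by 1.5-fold on every PC3 array that were measured on all 8, 3 were lower on all 8 and 2 opposite on all of the others. The former were POM121, HNRNPUL2 and CPD, with POM121 at -0.25 to -0.60 in FaDu and PANC-1, and TYMS was one of the latter. Of the 18 genes higher by 1.5-fold on every PC3 array, only 6 were measured on all 8, and 4 of these were higher on all 8. Among the 10 higher genes with the largest weakest ratio in PC3, IGF1R alone was measured on all 8. The rest of those 10 could not be checked for dye bias against the other lines.

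Genes with a second measured probe gave a further check. Of 440 lower genes with one, 204 (46.4%) were lower on all 4 arrays by the second probe too, against 13.9% of all second probes, and 14 were higher on all 4. Of 573 higher genes, 191 (33.3%) were higher by the second probe, against 12.7% of all, and 18 were lower. Both probes were hybridised to the same RNA in the same dye.

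Genes that were dim on 1 array are missing from the counts above. There were 312 genes measured everywhere except in Cy5 on the miR-99a-3p array, and 57 of them (18.3%) were lower on the other three. The like numbers were 11 of 155 (7.10%) for miR-150-5p, 15 of 168 (8.93%) for miR-150-3p and 24 of 380 (6.32%) for miR-100-3p. Of all genes measured on the other three arrays, 16.9% were lower on them when the miR-99a-3p array was left out, 18.3% without miR-150-5p and 17.7% without miR-150-3p. Without miR-100-3p it was 3093 of 16256. Above background in Cy3 on all 4 arrays but in Cy5 on none were 634 genes, of which 177 are protein-coding. Their largest members by Cy3 signal were NEMP2 (TMEM194B on the array), PRRX2, ESM1, NEIL3 and CELA3B. The normalized signals set a bound of at least 1.27-fold lower for NEMP2 and at least 1.17-fold lower for NEIL3, a DNA glycosylase, and no gene had a bound above 1.5-fold. Such bounds compare a Cy3 with a Cy5 channel and are open to dye bias. The reverse, above background in Cy5 on all 4 but in Cy3 on none, was found for 0 genes. Between 47.7% and 49.2% of the gene spots on PC3 arrays passed the background call in Cy3, and between 40.4% and 41.8% in Cy5.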

How the data were processed

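The 8 arrays were 2-colour Agilent arrays from 1 slide. The authors' scanner software, Agilent Feature Extraction 10.7.3.1, corrected the background and normalized the dyes within each array. The deposited files hold intensities for each dye, and per spot a log10 ratio (Cy5 divided by Cy3) and its error. The deposited series table holds the same log10 ratios, with a largest difference of 0 from the scanner files. Here log10 ratios were converted to log2. Spots of control probes were dropped, as were those flagged as outliers for uniformity or population. Spots of a probe were averaged. limma 3.58.1 (R 4.3.3) tested the mean of the PC3 ratios against 0, and the PC3 mean against the mean of the FaDu and PANC-1 arrays, with Benjamini-Hochberg adjustment over all genes. This step was tested on simulated data. Alternatives are normexp (offset 50) with loess, median centring, other filters, the mean over probes and leaving out each PC3 array. With 4 pairs an exact two-sided sign test cannot give a p below 0.125. Channels were compared after loess and Aquantile normalization, as were bounds for dim genes, which take the lowest signal well above background on each array.

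Genes named are protein-coding: the 10 lower and 10 higher with the largest weakest ratio, the 5 at either end by mean, the 3 in each direction with the smallest SD beyond 1.5-fold, up to 3 in each direction per list, the 5 in each direction with 1 sign on 8 arrays, and the 5 brightest dim in 1 dye. The noncoding genes around the 1.5-fold limit, RAD54L, KLF3, and the members of the cell cycle lists given beyond this rule were chosen after their values were seen. Members and the 18 lists were chosen with earlier results of these data known. Symbols were updated through RefSeq, where 12988 of 15872 genes matched. The number of arrays limits the precision. Tables were handled with pandas 2.3.3 and numpy 2.4.6 under Python 3.11.15. Some genes are not reported here singly.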

Additional observations from a re-analysis of the deposited data

Results flagged for a closer look

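An array stood far from the other three, in units of the range of the 4 PC3 arrays (Dixon's ratio above its critical value), for 16 of 116 items examined. Chance flags about 1 in 20 groups that were not chosen by their values. The named genes were chosen on the same 4 ratios, so that this rate does not apply to them. For the interferon response list the ratio was 0.852, with the miR-150-3p array apart, and 2 genes of the list followed it, IFI44L (0.928) and IRF1 (0.852). The miR-99a-3p array was apart for CDK4 (0.930), GLB1 (0.869), HSP90AA1 (0.868), IGF1R (0.934), KIF4A (0.846), POLA2 (0.907), THBS1 (0.903), TXNIP (0.844), TYMS (0.918) and COL1A1 (0.853). The miR-150-5p array was apart for KCNJ2 (0.926), the miR-150-3p array for ALDOA (0.846) and the miR-100-3p array for SLC2A1 (0.839).

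For 8 items all 4 PC3 arrays had one sign and all 4 FaDu and PANC-1 arrays the other. The PC3 mean less the mean of the others was -1.25 for the DNA replication median, -1.26 for the mitosis median, -1.91 for SPC25, -2.14 for TYMS, -1.03 for HSP90AA1, -0.65 for LAMA3, 1.32 for DDIT4 and 1.51 for DNAJB9. For the list medians the difference was not tested, and for the genes the limma comparison of PC3 with the other lines called 0. HSP90AA1 was of mixed sign in PC3 after normexp and loess, and LAMA3 after averaging its probes.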

How the results depend on the processing

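Each ratio paired transfected with mock cells on 1 array. Arrays were not paired between lines, because the replicate numbers only name different RNAs in each line. Counts of genes of 1 sign followed the size asked for: from 2034 lower and 2395 higher genes, 379 and 458 exceeded the spot error on every array, 13 and 18 reached 1.5-fold, and 0 and 1 reached 2-fold. Leaving out 1 PC3 array gave 2735 to 3093 lower and 3028 to 4087 higher genes on the other three, and the count went beyond 1.5 times the full one without the miR-100-3p array. limma called 0 genes in both comparisons under all alternatives run. Of 144 list medians recomputed, 140 stayed within the spread between arrays, the SD of the list median over the 4 PC3 arrays. The others were the ribosomal proteins after normexp and loess (0.317), and 3 lists with 1 array left out: the unfolded protein and ATF4 response ranged from -0.186 to -0.097, immediate early and YAP targets from -0.036 to 0.120, and growth arrest and apoptosis from 0.040 to 0.131. The interferon median of 0.24 became -0.23 without the miR-150-3p array, which still lay within its SD of 0.918. The SD was also wide for the replication (0.694) and mitosis (0.791) lists, so large shifts of these lists would count as within it. Among named genes, the mean of RPLP2 (0.21) and RPS9 (0.10) turned above 0 after normexp and loess, and the cause was not tested. Of 100 named genes, 10 were of mixed sign after normexp and loess, RPLP2 had the opposite sign on all 4 arrays, and 6 were of mixed sign with the mean over probes.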
